A study of Mus musculus with 8 samples.

Results

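The conjugation enzymes of phase II metabolism were examined in the liver of fasted mice that carry a phosphorylation-resistant perilipin 5 and of wild-type mice. They were taken by a rule that used no measured value, as every gene of the count table whose symbol belongs to the following groups. The groups were the UDP-glycosyltransferases (families Ugt1a, Ugt2a, Ugt2b and Ugt3a), the cytosolic sulfotransferases (Sult) and the cytosolic and kappa glutathione S-transferases (Gst). The rule gave 61 genes of the 45706 in the table, of which 21 were Ugt, 19 Sult and 21 Gst genes. Of the 61, 50 had enough reads to be tested, namely 17 Ugt, 13 Sult and 20 Gst genes.

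The study asked by RNA sequencing which liver genes depend on a phosphorylated serine of PLIN5, a lipid droplet protein, during fasting. In the SA/SA group this serine is replaced by alanine (S155A) in the whole body, by CRISPR-Cas9 editing of C57BL/6J mice, in a line bred from a founder whose edit was sequenced. The WT group are C57BL/6J mice, and all mice of both groups were females of 4 months, fed chow and fasted overnight before harvest. Each group held 4 mice with 1 library each, called replicates 1 to 4.

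Phase II enzymes attach a polar group to drugs, hormones, bile acids and bilirubin so that bile and urine can carry them away. Enzymes of the Ugt1a, Ugt2a and Ugt2b families transfer glucuronic acid from UDP-glucuronic acid inside the endoplasmic reticulum. Sult enzymes transfer sulfate from PAPS in the cytosol, and Gst enzymes join glutathione to reactive compounds. Hepatocytes express them at high levels, several Sult genes are known to be expressed mainly in females, and the nuclear receptors CAR and PXR, the AHR and the stress-responsive factor NRF2 are known regulators of many of them.

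Close copies limit which member a read can be given to, so the first 90 coding bases of those concerned are shown, from GENCODE M21 transcripts (GRCm38). Gstp1 and Gstp2, pi class enzymes that lie next to each other on chromosome 19, differed at 6 of the 90, in capitals. Sult2a1 and Sult2a2, hydroxysteroid and bile acid sulfotransferases on chromosome 7, did not differ in this stretch. Sult2a7, of the same cluster, differed from Sult2a1 at 28 bases, in capitals.
Gstp1: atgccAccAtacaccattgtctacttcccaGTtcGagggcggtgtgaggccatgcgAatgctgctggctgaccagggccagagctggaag
Gstp2: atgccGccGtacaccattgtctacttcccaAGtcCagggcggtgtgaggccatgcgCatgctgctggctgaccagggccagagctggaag
Sult2a1 and Sult2a2: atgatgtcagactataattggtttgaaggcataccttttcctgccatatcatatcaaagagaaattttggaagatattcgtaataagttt
Sult2a7: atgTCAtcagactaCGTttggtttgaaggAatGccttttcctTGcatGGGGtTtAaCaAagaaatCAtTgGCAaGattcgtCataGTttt

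Over the longest coding transcript, 55.6% of the 31-base words of Sult2a1 and 74.5% of those of Sult2a2 occur in transcripts of other genes, against 0.219% for Sult2a7. The 9 Ugt1a genes are first exons spliced to shared last exons, so 58.5% of the words of Ugt1a1 are shared. For Ugt1a6a, 100% of the words occur in a transcript annotated to Ugt1a7c. Of the 50 members tested, 16 shared at least 50% of their words (9 Ugt, 3 Sult and 4 Gst genes). For these the split of reads among copies by the authors' counting is uncertain.

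The windows from 250 bases before to 50 bases after RefSeq gene starts (GRCm38.p6) were matched for 53 of the member genes, in 64 windows, and were searched on both strands for short motifs, which may overlap each other. Gsta4, Gstt2, Sult2a1, Sult2a2, Sult2a7, Sult4a1, Ugt1a6b and Ugt3a2 had no matched entry. The antioxidant response core TGACNNNGC was in 4.69% of the members' windows (Gsta3, Gstm5 and Gstm7) against 12.4% of all 32851 windows. The xenobiotic response core GCGTG was in 18.8% against 32.4%, and TATAAA was in 20.3% against 13.6%. A match is a description of letters and not a site of binding.

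Libraries held between 39709785 and 54540864 estimated counts. Values are given as CPM, counts scaled to a common TMM-normalized library size, and levels are compared between genes per kilobase of transcript. The labels name the cell type as hepatocytes and the tissue as liver. Alb was at 63058 to 97392 CPM in the 8 libraries, and markers of other liver cells were present, with a summed level of the 6 Kupffer cell genes of 149 to 360 CPM. In such bulk tissue, fewer cells of a type and less RNA per cell cannot be told apart. Some libraries stood apart in their markers of other cells. The summed level of 8 lymphocyte genes was 2059 CPM in SA/SA replicate 3, mostly immunoglobulin, against 18.8 to 44.8 CPM in the others. Pancreatic acinar genes summed to 41.8 CPM in WT replicate 2, against 4.27 to 6.58 CPM, and cholangiocyte genes to 85.5 CPM in the same library, against 27.2 to 51.3 CPM. Red blood cell genes summed to 2647 CPM in WT replicate 4 and 411 CPM in WT replicate 1, against 951 to 1462 CPM, and stellate cell genes to 90.5 CPM in SA/SA replicate 2, against 161 to 279 CPM. The 5 red blood cell and 5 stellate cell genes all had log2 fold changes below 0 (medians -0.54 and -0.43), with none at an unadjusted p under 0.05. The 6 Kupffer cell and 8 lymphocyte genes all had ones above 0 (medians 0.24 and 0.91). Of these, Ighm, Igkc and Jchain were at an unadjusted p under 0.05. The 2 acinar genes tested were lower, with Cela2a at that threshold. Of 5 endothelial genes 2 were higher, and of 5 cholangiocyte genes tested 1 was. The description field gives each mouse a number, below 200 for replicates 1 and 4 of both groups and above 800 for replicates 2 and 3, and its meaning is not given in the sources used here. These are called the low and the high number series. The median difference of the Kupffer cell genes was -0.40 in the low and 0.94 in the high series. That of the lymphocyte genes was -0.03 and 1.19. Plin5 mRNA, which the edit leaves in place, was at 183 to 254 CPM in WT and 192 to 457 CPM in SA/SA mice. Its log2 fold change was 0.67 ± 0.24 (SE), with an unadjusted p under 0.05 and an adjusted p of 0.993 by edgeR's quasi-likelihood test.

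No difference in conjugation enzyme mRNA between SA/SA and WT livers was large enough, against the spread between mice, to be called. No member passed an adjusted p of 0.05 by edgeR's quasi-likelihood test with Benjamini-Hochberg adjustment over all 14629 genes tested, and neither did any other gene (0%). At an unadjusted p under 0.05, 2 members were higher in SA/SA livers, Gsta2 and Gsto1, and 1 was lower, Sult2a7. That is 3 of 50 members (6.0%), where 3.40% of all genes tested passed, 1.42% as higher and 1.98% as lower. DESeq2 called 0 members and 6 genes in all, and gave the same 3 members at an unadjusted p under 0.05. The members together made up 0.699% to 0.877% of each library. Their share was 0.781% ± 0.078 (SD, n = 4) in WT and 0.784% ± 0.037 in SA/SA mice (two-sided exact permutation test, p = 0.886). The median log2 fold change of the 50 members was -0.01, against -0.01 for all genes tested, with 23 members higher and 27 lower in SA/SA mice.

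**Figure D1:**
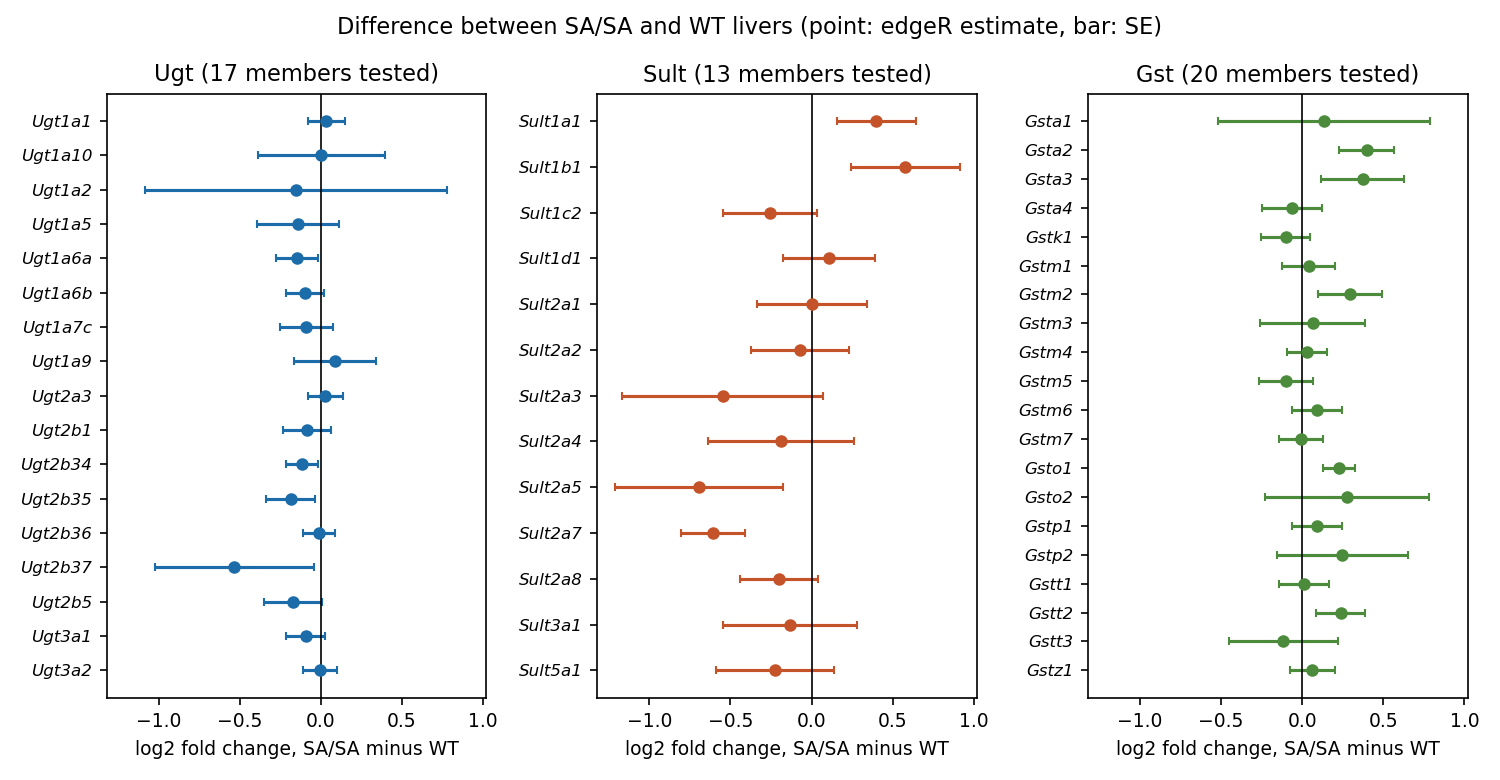
Log2 fold change of SA/SA against WT livers for the 50 members tested, in panels by superfamily, with the edgeR estimate as a point and its standard error as a bar (4 mice per group). Ugt points lie close to 0 with a median of -0.09, Gst points have a median of 0.08, and the widest range, from -0.70 to 0.58, is among the Sult genes.

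The median difference was below 0 for the Ugt and Sult genes and above 0 for the Gst genes. Of the 17 Ugt genes 13 were lower in SA/SA mice, with a median log2 fold change of -0.09 and a range from -0.53 to 0.09. Of the 13 Sult genes 9 were lower, with a median of -0.19. Of the 20 Gst genes 15 were higher, with a median of 0.08. When each mouse was summarised by the median of its deviations from the mean of the 8 mice, the SD of that median within a group was 0.09 for Ugt, 0.22 for Sult and 0.20 for Gst genes on the log2 scale. The median difference was about as large as this SD for Ugt genes and smaller than it for Sult and Gst genes. The Sult median was 0.04 without WT replicate 2, so that its sign rested on 1 mouse, and the Gst median was -4.54e-04 without WT replicate 4, the library with the most red blood cell reads, whose part was not tested. The summed Gst counts were 0.320% ± 0.043 of the library in WT and 0.336% ± 0.028 in SA/SA mice (exact permutation p = 0.6), and the summed Sult counts 0.151% ± 0.031 and 0.156% ± 0.030 (exact permutation p = 0.914). The summed Ugt counts were 0.310% ± 0.011 and 0.293% ± 0.020 (exact permutation p = 0.229).

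Sult2a7 (chr7:14465051-14494230, minus strand, GRCm38, GENCODE release M21) was the member with the smallest p. Its level was 4.34, 3.81, 4.15 and 3.45 CPM in WT replicates 1 to 4, and 2.82, 2.44, 1.95 and 3.10 CPM in SA/SA replicates 1 to 4. All 4 SA/SA mice were below all 4 WT mice, which held for no other member (1 of 50, where 2.30% of all genes tested had groups that do not overlap). The log2 fold change was -0.61 ± 0.20 (SE), with an unadjusted p of 0.0120 and an adjusted p of 0.993 by edgeR, and the exact permutation test gave 0.0286, the smallest p that 4 against 4 allows. The difference was -0.38 in the low and -0.85 in the high number series, and it was between -0.71 and -0.50 when any 1 mouse was left out. With a mean of 3.94 CPM in WT and 2.58 CPM in SA/SA livers it is a minor transcript of its cluster. Its neighbour Sult2a8, which acts on bile acids, was at 102 to 202 CPM with groups that overlapped and a log2 fold change of -0.20 ± 0.24.

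Gsta2 (chr9:78331018-78355788, minus strand), an alpha class enzyme known as a target of NRF2, was at 13.6, 18.1, 12.2 and 11.1 CPM in WT and 20.6, 16.4, 19.9 and 15.6 CPM in SA/SA mice. WT replicate 2 lay among the SA/SA mice and the other 3 WT mice below them all. The log2 fold change was 0.40 ± 0.17 (SE) with an unadjusted p of 0.0397 and an adjusted p of 0.993 (edgeR), and the exact permutation p was 0.0857. Of its 31-base words 75.6% are shared with other genes, most with the gene model Gm10639, so its count is uncertain. Gsta3, the most abundant alpha class gene, was at 362 to 667 CPM in WT and 407 to 875 CPM in SA/SA mice (0.37 ± 0.26, adjusted p = 0.993). Leaving out SA/SA replicate 3 lowered this to 0.16, and leaving out WT replicate 2 raised it to 0.58. Without WT replicate 2, Gsta3 was at an unadjusted p under 0.05, as were 684 of the 14848 genes tested. Gsta4, which clears the lipid peroxidation product hydroxynonenal, shared no words and was at 19.5 to 38.1 CPM in WT and 25.5 to 29.8 CPM in SA/SA mice (-0.06 ± 0.18). Gsta1 was near 1 CPM and shared 92.2% of its words.

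Gsto1 (chr19:47854970-47864790, plus strand), an omega class enzyme with thioltransferase and dehydroascorbate reductase activity, was at 140, 117, 116 and 121 CPM in WT and 134, 150, 148 and 145 CPM in SA/SA mice. WT replicate 1 was above SA/SA replicate 1, and the remaining values did not overlap. The log2 fold change was 0.23 ± 0.10 (SE), with an unadjusted p of 0.0431, an adjusted p of 0.993 and an exact permutation p of 0.0571. Scaling by library size alone left Sult2a7 as the only member at an unadjusted p under 0.05, so the split of 2 higher and 1 lower became 0 and 1. Gsto1 shares no words with other genes, and it overlaps Cfap43 on the opposite strand. Gsto2, its neighbour, was at 0.0927 to 0.396 CPM.

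**Figure D2:**
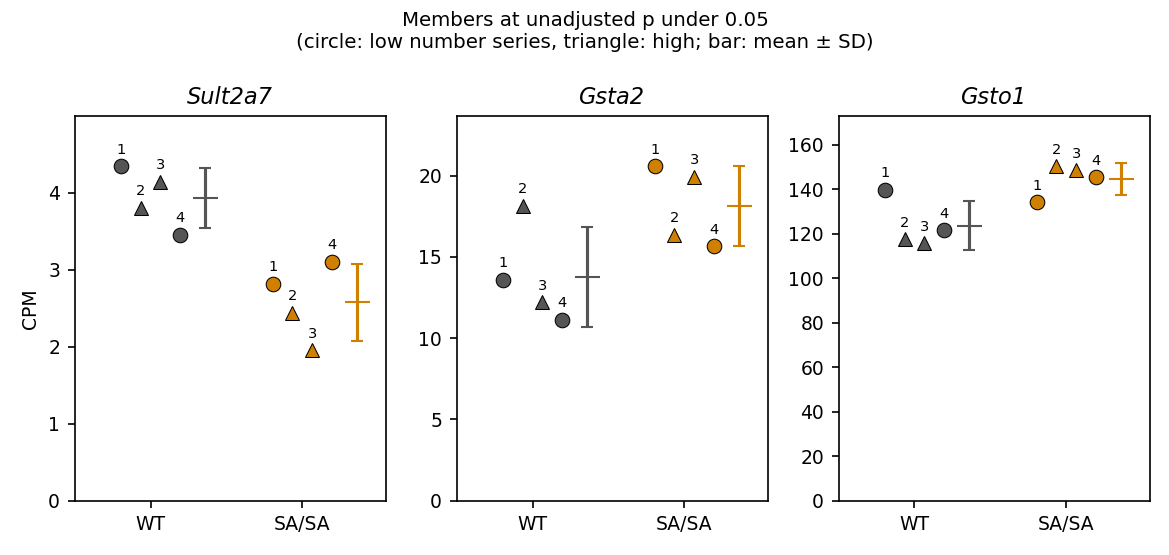
CPM of Sult2a7, Gsta2 and Gsto1 in each mouse (circles for the low and triangles for the high number series, digits for the replicate), with the mean and SD of the 4 mice of each group beside the points. The groups do not overlap for Sult2a7, and 1 WT mouse reaches into the SA/SA range for Gsta2 and for Gsto1.

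Of the 17 Ugt genes tested, 11 varied less between mice than the median gene and 6 varied more. Ugt1a1, the enzyme that conjugates bilirubin, led them at 426 CPM per kilobase and 26.7% to 34.6% of all Ugt counts. It was at 1032, 1020, 810 and 887 CPM in WT and 864, 1032, 992 and 950 CPM in SA/SA mice, and the groups overlapped throughout (log2 fold change 0.03 ± 0.11). Summed over the 9 Ugt1a genes the level was 1303 ± 98.6 CPM (SD, n = 4) in WT and 1302 ± 92.2 CPM in SA/SA mice (exact permutation p = 1.0), a sum that the split of reads among first exons does not touch. Ugt1a5 was the next of the Ugt1a genes at 54.6 CPM per kilobase, at 83.0 to 151 CPM in WT and 68.9 to 152 CPM in SA/SA mice. Ugt1a9 was at 51.1 to 66.7 CPM in WT and 37.9 to 98.0 CPM in SA/SA mice (0.09 ± 0.26), with the SA/SA mice on both sides of the WT range. Ugt1a2 was the most variable Ugt gene and barely read, at 0 to 1.34 CPM.

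The Ugt2b genes, which conjugate steroids and bile acids, had 6 members tested. All 6 had log2 fold changes below 0, from -0.53 to -0.01, with none at an unadjusted p under 0.05. This direction was not shared by the 2 number series. In the low series 4 of the 6 were higher in SA/SA mice (median 0.16), and in the high series 0 were (median -0.28). Ugt2b5 was the most abundant at 216 CPM per kilobase, with 319, 441, 484 and 459 CPM in WT and 425, 328, 290 and 470 CPM in SA/SA mice (-0.17 ± 0.18). The ranges overlapped, and the SA/SA mice of the high series were below the WT mice of that series. Ugt2b36 had the smallest spread of all members, an SD of log2 CPM of 0.09 over the 8 mice, at 342 to 390 CPM in WT and 331 to 396 CPM in SA/SA mice (-0.01 ± 0.10). Ugt2b37 had the lowest log2 fold change of the Ugt genes, -0.53 ± 0.49, at levels of 0.224 to 1.46 CPM. Ugt2a3 was at 104 to 118 CPM in WT and 101 to 131 CPM in SA/SA mice (0.03 ± 0.11). The Ugt3a genes, which use sugars other than glucuronic acid, did not differ beyond their error: Ugt3a2 was at 293 to 329 CPM in WT and 267 to 339 CPM in SA/SA mice (-0.01 ± 0.10), and Ugt3a1 had a log2 fold change of -0.09 ± 0.12.

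Among the Gst genes, Gstm1 of the mu class was the most abundant member of all at 615 CPM per kilobase. It was at 680, 934, 910 and 603 CPM in WT and 875, 872, 821 and 644 CPM in SA/SA mice, with a log2 fold change of 0.04 ± 0.17. Replicate 4 was the lowest mouse of each group. Gstz1, the zeta class enzyme that isomerises maleylacetoacetate in tyrosine breakdown, followed at 436 CPM per kilobase, and was at 619 to 796 CPM in WT and 625 to 834 CPM in SA/SA mice (0.06 ± 0.14). Gstp1, known as higher in male than in female mouse liver, was at 196 to 283 CPM in WT and 210 to 307 CPM in SA/SA mice (0.09 ± 0.15). Its copy Gstp2 was at 0.727 to 2.87 CPM, and 78.1% of the words of its longest coding transcript are shared.

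No theta, kappa or mu class gene was at an unadjusted p under 0.05. Gstt1 was at 208 to 326 CPM in WT and 220 to 298 CPM in SA/SA mice (0.01 ± 0.15), and Gstt2 at 111 to 157 and 121 to 184 CPM (0.24 ± 0.15, adjusted p = 0.993 by edgeR). Gstt3 had the lowest log2 fold change of the Gst genes, -0.12 ± 0.34, with 107, 80.9, 57.6 and 49.7 CPM in WT and 51.8, 88.8, 97.2 and 34.1 CPM in SA/SA mice. Its values spread over the same range in both groups. Gstk1, of mitochondria and peroxisomes, was at 109 to 175 CPM in WT and 129 to 153 CPM in SA/SA mice (-0.10 ± 0.15). Gstm4 was at 48.8 to 62.9 and 50.2 to 66.3 CPM (0.03 ± 0.12). Gstm2 was at 45.2, 54.0, 47.4 and 43.8 CPM in WT and 54.9, 75.1, 67.0 and 36.4 CPM in SA/SA mice (0.29 ± 0.20, adjusted p = 0.993 by edgeR). SA/SA replicate 4 was the lowest of the 8 mice and the only SA/SA mouse not above all WT mice. With all 8 mice the unadjusted p of Gstm2 was 0.164 (edgeR) and its exact permutation p 0.343. Leaving out SA/SA replicate 4 removes the overlap by construction, so this is no support for a difference. Without that mouse Gstm2 was at an unadjusted p under 0.05, as were 626 of the 14916 genes tested in that setting.

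The Sult genes varied most from mouse to mouse. All 13 tested had an SD of log2 CPM over the 8 mice above the median of all genes tested, 0.27, against 6 of 17 Ugt and 9 of 20 Gst genes. The median SD was 0.50 for Sult, 0.20 for Ugt and 0.25 for Gst genes. Sult2a1, at 439 CPM per kilobase the most abundant Sult gene, had an SD of 0.59, and Ugt1a1, at 426 CPM per kilobase, one of 0.13.

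**Figure D3:**
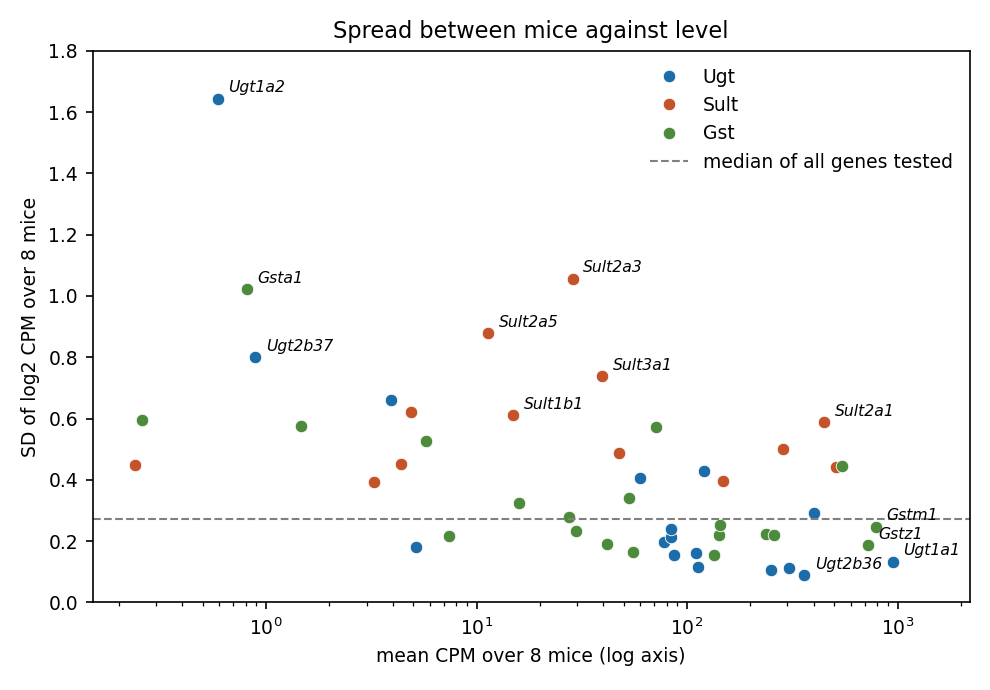
SD of log2 CPM over the 8 mice (vertical axis) against mean CPM over the 8 mice (horizontal log axis) for the 50 members, coloured by superfamily, with the median SD of all genes tested, 0.27, as a dashed line. All 13 Sult genes lie above the line at every level, while most of the abundant Ugt genes lie below it.

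Sult2a1 and Sult2a2, which sulfate hydroxysteroids and bile acids, together made up 33.2% to 56.0% of all Sult counts. Sult2a1 was at 462, 656, 457 and 214 CPM in WT and 437, 586, 533 and 238 CPM in SA/SA mice (log2 fold change 0.00 ± 0.34). Sult2a2 was at 258, 439, 309 and 167 CPM in WT and 278, 380, 291 and 165 CPM in SA/SA mice (-0.07 ± 0.30). For both genes WT replicate 2 was the highest mouse and replicate 4 the lowest of each group, so that mice within a group differed far more than the groups. The red blood cell sum was 2647 CPM in WT replicate 4 and 989 CPM in SA/SA replicate 4.

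Sult2a3 and Sult2a5, of the same cluster, followed nearly the same order of mice with a wider range. Sult2a3 was at 14.6, 80.01, 30 and 11.6 CPM in WT and 18.5, 41.8, 24.7 and 8.19 CPM in SA/SA mice, a 9.77-fold range over the 8 mice. Its log2 fold change of -0.55 ± 0.62 was 0.31 without WT replicate 2. Sult2a5 was at 6.90, 30.99, 13.3 and 5.11 CPM in WT and 11.3, 11.5, 6.995 and 4.84 CPM in SA/SA mice, and its log2 fold change, the lowest of all members at -0.70 ± 0.52, was 0.04 without that mouse. The sign of both differences thus rested on WT replicate 2, the library with pancreatic acinar and the most cholangiocyte reads, whose part in these values was not tested. The copies share words (27.4% for Sult2a3 and 51.1% for Sult2a5), and the part of shared reads in this common order was not tested.

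Sult3a1, an amine sulfotransferase known to be expressed in females, had an order of mice almost the reverse of the Sult2a genes. It was at 46.3, 14.2, 44.6 and 60.7 CPM in WT and 31.9, 20.1, 40.4 and 58.6 CPM in SA/SA mice. WT replicate 2 was the lowest mouse and replicate 4 the highest of each group, over a 4.26-fold range, and the groups overlapped throughout (-0.13 ± 0.41). Sult5a1 was at 2.11 to 6.86 CPM (-0.23 ± 0.37).

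**Figure D4:**
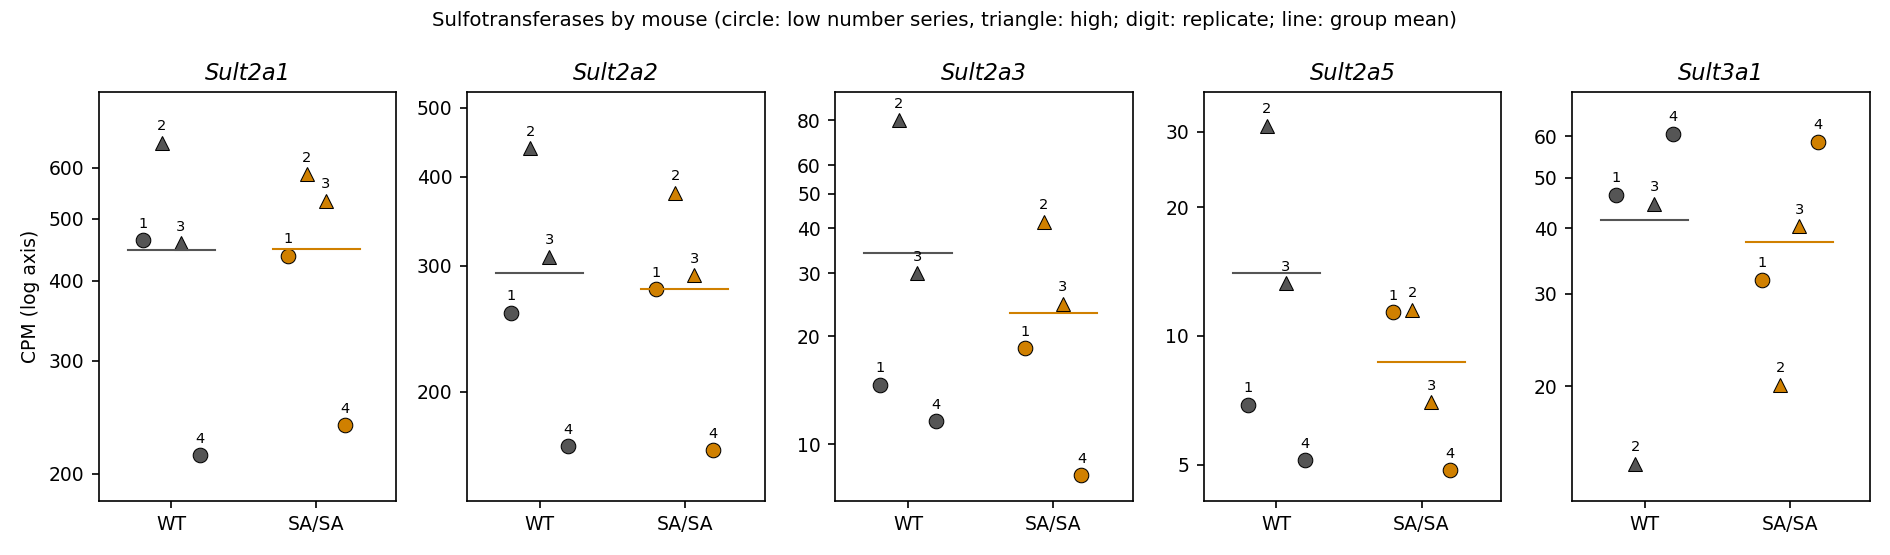
CPM of 5 sulfotransferases in each mouse on log axes (circles for the low and triangles for the high number series, digits for the replicate, horizontal lines for group means). WT replicate 2 is the highest mouse for Sult2a1, Sult2a2, Sult2a3 and Sult2a5 and the lowest for Sult3a1, while replicate 4 of each group is lowest in the former and highest in the latter.

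The Sult1 genes sulfate phenols, catecholamines and thyroid hormones. In all 4 tested the genotype difference had opposite signs in the 2 number series, as it did for 54.9% of all genes tested. Sult1c2, at 2.33 to 6.94 CPM, was higher in SA/SA mice of the low series (0.26) and lower in those of the high series (-0.57), the reverse of the other 3. Sult1b1 was at 16.8, 8.99, 9.26 and 12.9 CPM in WT and 8.90, 20.6, 28.4 and 13.8 CPM in SA/SA mice. In the high series both SA/SA mice were above both WT mice, by 1.40 on the log2 scale, and in the low series the difference was -0.41. The interaction of genotype with number series had an unadjusted p of 7.41e-04 and an adjusted p of 0.210 by edgeR, the smallest among the members. Over all 8 mice the log2 fold change was 0.58 ± 0.33, and it was 0.27 without SA/SA replicate 3, the library with immunoglobulin reads, whose part was not tested.

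Sult1a1, the main phenol sulfotransferase, was at 511, 516, 319 and 406 CPM in WT and 366, 708, 773 and 464 CPM in SA/SA mice (0.40 ± 0.25), and this fell to 0.23 when SA/SA replicate 3 was left out. The difference was -0.14 in the low and 0.87 in the high series. Sult1d1, which sulfates catecholamines, was at 59.6, 40.6, 41.5 and 42.0 CPM in WT and 23.0, 59.0, 68.3 and 47.7 CPM in SA/SA mice, with differences of -0.59 and 0.63. For Sult1b1, Sult1a1 and Sult1d1 the SA/SA mice of the high series, replicates 2 and 3, were the highest of their group.

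Across the members, 10 of 50 (20%) had an interaction at an unadjusted p under 0.05, where 11.1% of all genes tested had one, and 0 of them and 0% of all genes passed after adjustment. They were Sult1b1, Sult1a1, Sult1d1, Sult2a5, Gstt3, Gstp1, Ugt1a9, Ugt1a10, Ugt2b1 and Ugt2b5. Of these, Sult2a5, Gstp1, Ugt1a9, Ugt1a10 and Ugt2b5 shared at least 50% of their words with other genes. The 10 are therefore not all independent counts. The directions of the 10 were mixed. The 3 Sult1 genes and Gstt3 were lower in SA/SA mice of the low series and higher in those of the high series, whereas the 4 Ugt genes, Gstp1 and Sult2a5 went the other way. The difference of Ugt2b5, for example, was 0.22 in the low and -0.58 in the high series, that of Ugt1a9 0.48 and -0.48, and that of Ugt1a10 0.94 and -0.55. In all, 32 of 50 members (64.0%) had differences of opposite sign in the 2 series, against 54.9% of all genes tested. Each series held 2 mice per genotype.

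**Figure D5:**
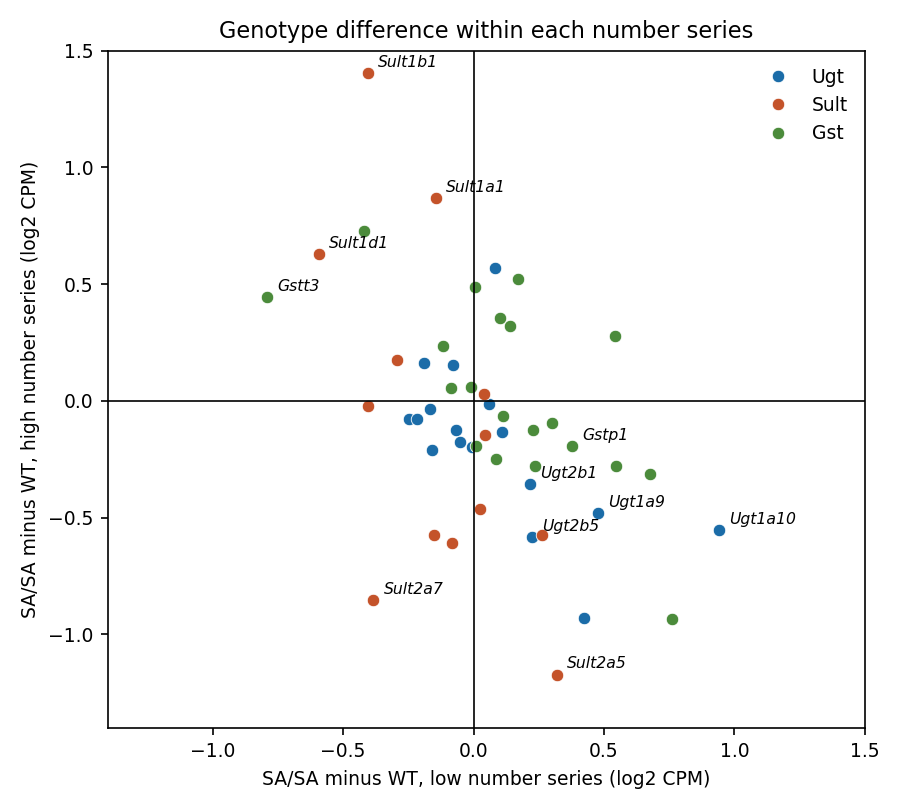
Difference between SA/SA and WT mice in log2 CPM within the high number series (vertical axis) against that within the low series (horizontal axis), 1 point per member tested, coloured by superfamily, with 2 mice per genotype in each series. Sult1b1, Sult1a1, Sult1d1 and Gstt3 lie at the upper left and Sult2a5, Ugt1a9, Ugt1a10 and Ugt2b5 at the lower right, while Sult2a7 is below 0 in both series.

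The number series itself moved with more members than genotype did. With both genotypes together, 15 of 50 members (30%) differed between the series at an unadjusted p under 0.05, where 12.8% of all genes tested did, and the smallest adjusted p was 0.161 (edgeR). Of the 15, 14 were higher in the high series, as were 971 of the 1877 genes at that threshold in all. They were 8 Gst genes (Gsta3, Gsta4, Gstk1, Gstm1, Gstm2, Gstm3, Gstt1 and Gstt2), Sult2a1, Sult2a2, Sult2a3, Sult2a5, Ugt1a5 and Ugt1a6b. Of these, the 4 Sult2a genes are copies that share words. Others share words with other genes too, among them Ugt1a5 (65.3%), Ugt1a6b (85.1%), Gstm1 (34.3%) and Gstm3 (37.7%). The log2 difference of the high minus the low series was 1.69 for Sult2a3, 0.64 for Gsta3 and 0.35 for Gstt1. Ugt2b35 was the member lower in the high series, by -0.34. With the number series as a block, genotype gave the same 3 members at an unadjusted p under 0.05, Gsta2, Gsto1 and Sult2a7.

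The genes around these enzymes gave no call either. The 10 lists of related genes held 120 different genes, of which 114 were tested and 0 passed an adjusted p of 0.05. An unadjusted p under 0.05 was reached by 5 (4.39%), near the 3.40% of all genes tested. For donor supply, none of the 6 genes listed for UDP-glucuronic acid supply, among them Gusb, which instead cleaves glucuronides, and of the 10 tested for PAPS and sulfate release was at an unadjusted p under 0.05, with median log2 fold changes of -0.02 and -0.06. Ugdh, which makes UDP-glucuronic acid, was at 74.3 ± 15.5 CPM in WT and 72.3 ± 7.33 CPM in SA/SA mice. Papss2, the main liver PAPS synthase, was at 109 ± 17.3 and 117 ± 38.3 CPM.

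Of 13 genes of glutathione synthesis and turnover, 1 was lower and 1 higher at an unadjusted p under 0.05. Gclc, the catalytic subunit of the enzyme that limits glutathione synthesis, was at 153, 170, 198 and 140 CPM in WT and 147, 133, 116 and 135 CPM in SA/SA mice. WT replicate 4 lay below SA/SA replicate 1, and the log2 fold change was -0.32 ± 0.13 with an adjusted p of 0.993 (edgeR). Glrx, a glutaredoxin that removes glutathione from proteins, was at 65.3 ± 11.9 CPM in WT and 82.0 ± 5.91 CPM in SA/SA mice (0.33 ± 0.13). The regulatory subunit Gclm was at 94.0 ± 8.64 and 81.3 ± 4.17 CPM (-0.21 ± 0.10, unadjusted p = 0.0596).

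Among 14 NRF2 targets outside the families the median log2 fold change was -0.01, with Gclc lower and Hmox1 higher (0.76 ± 0.34) at an unadjusted p under 0.05. The 10 targets of CAR and PXR had a median of 0.01, the 6 of AHR one of 0.12 and the 20 other phase II enzymes one of 0.04, and none of these genes was at an unadjusted p under 0.05. The same held for the 16 regulators, among them Nr1i3 (CAR), at 824 ± 183 and 848 ± 71.5 CPM. Of 14 female-biased liver genes 0 were at that threshold, with a median of 0.03. Of 11 male-biased genes tested 3 were higher, with a median of -0.18, and 2 were at that threshold. Both were lower in SA/SA mice, namely Mup7 (-1.56 ± 0.49) and Serpina12 (-1.54 ± 0.60). The difference of Serpina12 was -0.33 in the low and -2.40 in the high number series. Mup7 was barely read, at 0.29 to 2.55 CPM. Of the 8 periportal hepatocyte markers, 1 was lower at an unadjusted p under 0.05, Cyp2f2 (-0.60 ± 0.20), and of the 9 pericentral markers 0 were. As a set the periportal markers had no common direction: 4 of the 8 log2 fold changes were above 0 (median 0.006). Of the pericentral ones, 8 of 9 were above 0 (median 0.14).

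The 11 members not tested had too few reads in too many mice to pass the filter. Sult1c1, Sult6b1 and Ugt2a1 had 0 counts in all 8 libraries, which allows up to 0.0556 to 0.0792 CPM for a count of 0, counting error only. Sult1e1, the estrogen sulfotransferase, had 39, 66, 2 and 9 counts in WT and 10, 10, 37 and 5 in SA/SA mice. Ugt1a8 had 14 and 20 counts in WT replicates 1 and 3 and 0 elsewhere. Gstt4, Sult2a6, Sult2b1, Sult4a1, Ugt2a2 and Ugt2b38 had at most 12 counts in any library.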

How the data were processed

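Liver RNA of 4 WT and 4 SA/SA mice was sequenced with a stranded mRNA kit in paired reads. The deposited values are estimated counts that the authors made with salmon and scaled for transcript length, not for library size; use of strand and annotation release are not given in the sources used here. The submitters' processing notes name STAR, SAMtools, bcl2fastq, MultiQC, DESeq2 and build GRCm38. Columns were matched to mice by the number in the labels.

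Counts were rounded, filtered with filterByExpr (14629 of 45706 genes), TMM-normalized and compared with edgeR 4.0.16 (R 4.3.3) by the quasi-likelihood test, with all 8 mice and Benjamini-Hochberg adjustment over all genes tested. CPM uses TMM-normalized library sizes and log2 CPM a prior count of 2. The SE comes from the F statistic. Exact permutation tests were two-sided. Tests were checked on simulated data. Length and shared 31-base words come from the longest coding transcript of each gene in GENCODE M21. No pair of libraries was a copy of another.

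Named members were the 2 most abundant per family, those at an unadjusted p under 0.05 or without overlap, and the extremes of fold change and spread per superfamily; members of the interaction and number series tests, Sult1c2, Sult2a8 and Gstm2 were singled out only once their values were known. The members and lists were chosen with earlier results of these data known. Alternatives were DESeq2 1.42.0, other scalings and filters, blocks and leaving out each mouse. Of the lists and motifs examined, 1 gene and 1 sequence motif are not reported here.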

Additional observations from a re-analysis of the deposited data

Results flagged for a closer look

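Of 100 groups of 4 mice (50 members in each genotype), 5 held a mouse whose gap to its nearest neighbour took up more of the group's range than the limit passed by about 1 group in 20 by chance, which is 5 of 100. Gsta4 was at 29.8 CPM in SA/SA replicate 2 against 25.5 to 26.2 CPM in the other 3 SA/SA mice. Gstm5 was at 5.80 CPM in WT replicate 4 against 8.17 to 8.43 CPM. Gstp2 was at 2.87 CPM in SA/SA replicate 1 against 0.977 to 1.28 CPM. Sult1d1 was at 59.6 CPM in WT replicate 1 against 40.6 to 42.0 CPM. Ugt3a1 was at 131 CPM in SA/SA replicate 4 against 96.8 to 101 CPM.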

How the results depend on the processing

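Across the 15 alternatives 0 members were called at an adjusted p under 0.05, and the smallest adjusted p was 0.798 (edgeR without SA/SA replicate 1). Members at an unadjusted p under 0.05 numbered 3, and 1 with library size alone. With all genes of at least 1 count kept, the 3 were Gsta2, Sult2a7 and Ugt1a8, and Gsto1 was not among them (unadjusted p = 0.0581, edgeR). When 1 mouse was left out, members at that threshold numbered 1 to 5. There was 1 without WT replicate 3, WT replicate 4 or SA/SA replicate 3, and there were 5 without SA/SA replicate 1. The number among all genes moved as well, from 357 of 14881 tested without WT replicate 3 to 894 of 14840 without SA/SA replicate 1. Members whose groups do not overlap numbered 1, and 2 with library size alone, where Gsto1 was added. They numbered 1 to 5 when 1 mouse was left out, with 5 without WT replicate 1, 3 without SA/SA replicate 4 and 2 without WT replicate 2, WT replicate 4 or SA/SA replicate 1. Sult2a7 was in each of these sets. The share of all genes without overlap is not given for these settings, and it rises by chance when a group holds 3 mice. Leaving out mice gave median log2 fold changes from -0.28 to 0.0449 for Sult, from -0.11 to -0.05 for Ugt and from -4.54e-04 to 0.16 for Gst genes. Same-numbered mice were correlated at 0.0565, 0.166, -0.111 and 0.129 in their deviations from the group means. Mice of different numbers were correlated at -0.194 to 0.14. Same-numbered mice also lay in the same number series. With a replicate block 2 members, Gsta2 and Sult2a7, were at an unadjusted p under 0.05.

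Of the 35 named members tested, 13 kept the sign of their difference in all alternatives run and 22 did not. With 4 mice per group, the SE of a member's log2 fold change ran from 0.096 to 0.93, which limits the size of difference that could be detected. With library size alone the log2 fold change was -3.48e-04 for Gstm1, -0.017 for Gstm4, -0.0315 for Gstt1, -0.0396 for Sult2a1, -0.00374 for Ugt1a1 and -0.00504 for Ugt2a3. With a replicate block it was -0.0487 for Gsta1, 0.24 for Ugt1a2 and -0.00265 for Ugt1a9. When 1 mouse was left out, the lowest and highest values were -0.47 and 0.45 for Gsta1, -0.20 and 0.12 for Gsta4, -0.0671 and 0.14 for Gstm1, -0.0591 and 0.0998 for Gstm4, -0.0321 and 0.21 for Gstp1, -0.21 and 0.44 for Gstp2, -0.0738 and 0.14 for Gstt1, and -0.34 and 0.12 for Gstt3. They were -0.0879 and 0.34 for Sult1d1, -0.23 and 0.25 for Sult2a1, -0.27 and 0.19 for Sult2a2, -0.98 and 0.31 for Sult2a3, -0.97 and 0.0449 for Sult2a5, -0.43 and 0.11 for Sult3a1, and -0.50 and 0.0165 for Sult5a1. They were -0.0298 and 0.0877 for Ugt1a1, -0.87 and 0.56 for Ugt1a2, -0.30 and 0.03996 for Ugt1a5, -0.23 and 0.27 for Ugt1a9, -0.0485 and 0.0814 for Ugt2a3, -0.0581 and 0.0293 for Ugt2b36, and -0.0622 and 0.0515 for Ugt3a2. Of those that kept their sign, the range was over 1.5 times from the main value for Gsta3 (0.16 to 0.58), Gstk1 (-0.22 to -0.00849), Gsto2 (0.0797 to 0.58), Gstt2 (0.15 to 0.34), Gstz1 (1.81e-05 to 0.13), Sult1a1 (0.23 to 0.57), Sult1b1 (0.27 to 0.80), Ugt2b37 (-0.87 to -0.33), Ugt2b5 (-0.29 to -0.0612) and Ugt3a1 (-0.21 to -0.0482). The cause was not tested. The interaction with the number series was run in 1 fit only.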
